A study of Mus musculus with 6 samples.

Results

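Wnt pathway inhibitors are described here in osteogenic mesenchymal stem cells (MSCs) with and without Pcif1. The 10 genes were chosen by name, as rows of the count table whose symbol was Sfrp1, Sfrp2, Sfrp4, Frzb, Wif1, Dkk2, Dkk3, Nkd1, Nkd2 or Axin2. Each had 1 row among 20071 gene IDs, and all 10 passed the filter on low counts together with 13733 genes in all. Pcif1 encodes the methyltransferase that makes m6Am at the first nucleotide after the mRNA cap, and the comparison asks which of these genes were at another level when it was deleted. Control MSCs came from Pcif1fl/fl mice (labelled WT, 3 libraries) and knockout MSCs from Prrx1-Cre;Pcif1fl/fl mice (labelled Pcif1 CKO, 3 libraries), so both genotypes carried the floxed alleles. The mice had a C57BL/6J background and MSCs were taken from their femurs. Both groups spent 7 days in osteogenic medium, which held dexamethasone (100 nM), β-glycerophosphate (5 mM) and ascorbic acid (50 μg/mL), before poly(A) RNA was sequenced. Prrx1-Cre acts in limb mesenchyme and its descendants, so other cells of a marrow culture keep Pcif1. The labels give 3 libraries per genotype, while the series' design text calls the samples biological duplicates, and neither says which libraries came from separate mice. Each n = 3 therefore counts libraries, and the p-values measure only the spread between them.

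In canonical Wnt signaling, a secreted Wnt ligand binds a Frizzled receptor and an LRP co-receptor at the cell surface, β-catenin escapes destruction, and target genes are transcribed with TCF and LEF factors. Inhibitors act at several levels of this route. Secreted Frizzled-related proteins (Sfrp1, Sfrp2, Sfrp4 and Frzb, also called Sfrp3) and Wif1 bind Wnt ligands outside the cell, Dickkopf proteins such as Dkk2 bind the LRP co-receptors, and Nkd1, Nkd2 and Axin2 work inside the cell, the Naked proteins on Dishevelled and Axin2 in the complex that marks β-catenin for destruction. In bone, Wnt signaling favours osteoblast formation, and several of its inhibitors are made by stromal and osteoblast-lineage cells themselves.

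The libraries held 20258209 to 28227696 counts. WT replicate 3 stood apart: mitochondrial genes took 3.63% of its counts against 1.40% to 1.57% elsewhere, and leaving it out raised the genes called lower in CKO from 620 to 1447 and those called higher from 396 to 1544. Pcif1 itself was at 39.3 to 42.8 CPM (TMM-scaled counts, set to a common library size) in WT and 37.8 to 39.7 CPM in CKO libraries. Its log2 fold change was -0.085 (adjusted p = 0.645), and counts over the whole gene do not resolve the deleted exons. Xist had 5309 to 12347 counts in WT and 15 to 36 in CKO libraries, while 4 Y-linked genes were counted in all 6. Each of the 4 had a higher CPM in every CKO library than in any WT library, and Ddx3y (log2 fold change 0.83, adjusted p = 0.00325) and Eif2s3y (0.70, adjusted p = 0.029) were called higher, with 1 to 4 called over the alternatives, so a difference in the sex of the cells and the genotype cannot be told apart. Of 17 mesenchymal and osteoblast markers, 7 fell and 3 rose among the 16 tested, where 4.51% of all genes tested were called lower and 2.88% higher. With a library left out, those that rose numbered 0 (without CKO replicate 1), 1 (without WT replicate 2, CKO replicate 2 or CKO replicate 3), 3 (without WT replicate 1) or 6 (without WT replicate 3). The fit without WT replicate 3 called 10.4% of all genes lower and 11.1% higher. The stromal markers Prrx1, Pdgfra and Col1a1 were present in all libraries, whereas the osteocalcin gene Bglap, which has near-identical copies that can share its reads, had 1 to 5 counts in each. Macrophage markers summed to 32088 to 35499 CPM in WT and 33015 to 36205 CPM in CKO libraries. Lyz2 made up most of both sums, at 22767 to 25242 and 21981 to 26233 CPM. Part of the RNA in both genotypes thus carried that signature, and edgeR with its expression filter called 0 of the 12 genes. At an unadjusted p under 0.05, 1 macrophage gene was lower and 2 were higher, DESeq2 and edgeR with no expression filter each called 2 higher, limma-voom called 0, and the fit without WT replicate 3 called 1 lower and 3 higher.

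The starts of 7 of the 10 genes were found in the RefSeq promoter table (GRCm38.p6) and are shown because PCIF1 acts on a transcript's first base only where it is an adenosine. Each line gives 20 bases before the annotated start and 10 from it on, with the first transcribed base in capitals.
Sfrp2, chr3:83766301-83766330, plus strand: ctggctgggccccagcctctGctcactctg
Frzb, chr2:80447387-80447416, minus strand: gcgcagctgcgagccaaggcGctgacctcc
Wif1, chr10:121033984-121034013, plus strand: agtgctcgccttttgccagcAgttcccgcg
Dkk2, chr3:132085272-132085301, plus strand: agagggcgggggagagcagcAagagagcac
Nkd1, chr8:88527613-88527642, plus strand: ggaagctcagctgtgcctgtAgagaactga
Nkd2, chr13:73847622-73847651, minus strand: agaacccctgttaaagccccGtcgcgggcg
Axin2, chr11:108920329-108920358, plus strand: gggcggcgcgcgggccggccGagcgcctct
The annotated first base was A in 3 of these 7 genes (Wif1, Dkk2 and Nkd1) and G in the other 4, and 34.4% of the 32851 starts in the table are A. Of the 3 genes with an A, Nkd1 fell in CKO libraries while Wif1 and Dkk2 did not pass the test, and of the 4 with a G, Sfrp2 and Nkd2 fell. These are annotated and not measured starts. Those of Nkd1, Frzb and Wif1 lie 6279, 229 and 44 bases inside the starts of their GENCODE gene models. The letters ATCAAAG and TTCAAAG, a core of TCF and LEF binding sites read on both strands, occurred in 0 of the 7 windows of 250 bases before and 50 bases from the start, against 8.65% of all windows in the table. Sfrp1, Sfrp4 and Dkk3 were not matched.

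In CKO MSCs 5 of the 10 inhibitors fell, all by more than 1 on the log2 scale, and 0 rose by edgeR, DESeq2 or limma-voom. The genes that fell were Sfrp1, Sfrp4 and Sfrp2, which are Frizzled-related, and Nkd1 and Nkd2, which act inside the cell. At an unadjusted p under 0.05 in edgeR, Dkk2 and Dkk3 were higher. Across all genes tested, 4.51% were called lower and 2.88% higher, and 2.50% were lower by at least 1 on the log2 scale. Every CKO library lay below every WT library for these 5 members and above for 2 (Dkk2 and Dkk3), where 15.7% of all genes tested lay below and 15.0% above. The median log2 fold change of the 10 genes was -0.56, against 0.0017 over all genes tested. A lower level in a bulk culture can come from fewer cells of a type or from less RNA per cell, and the counts cannot tell them apart.

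**Figure D1:**
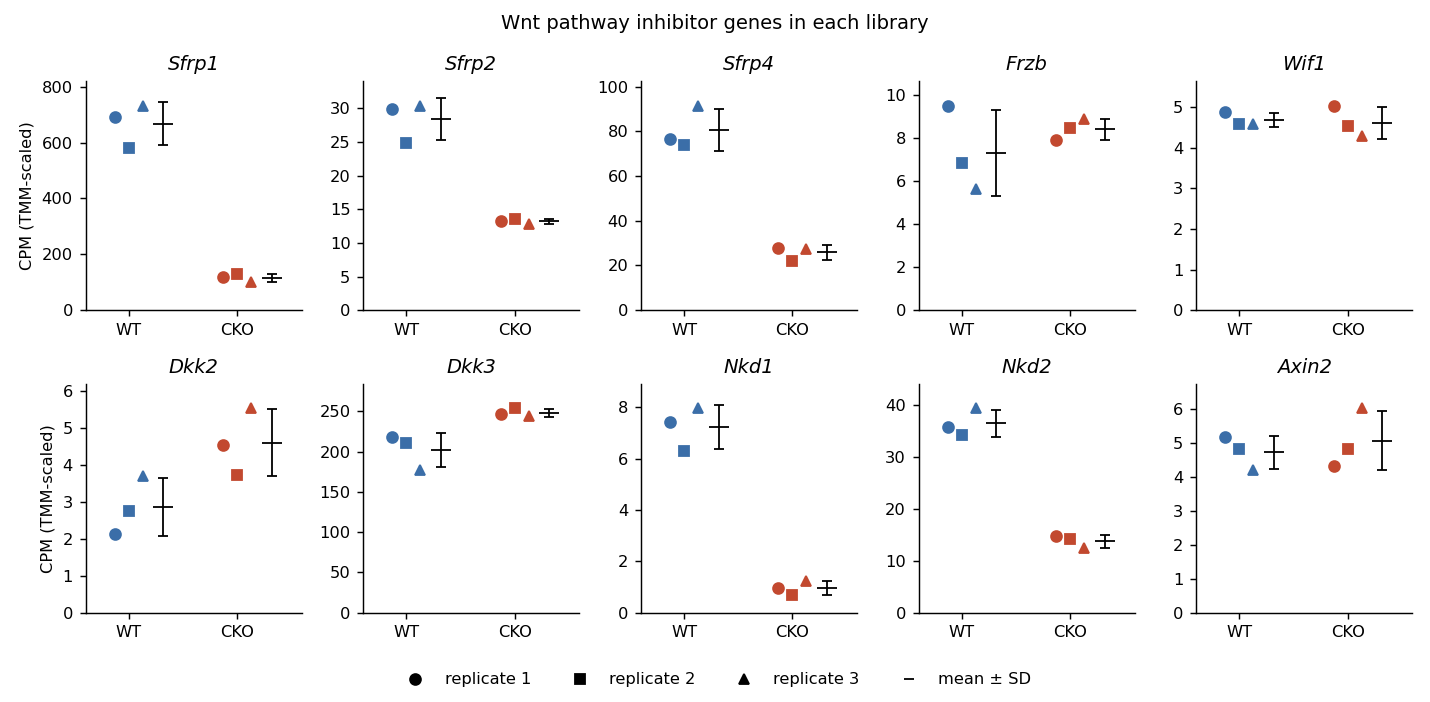
TMM-scaled CPM of the 10 inhibitor genes in each library, with WT (blue) and CKO (red) on the x axis, symbols for replicates and black bars for the mean ± SD of 3 libraries. Sfrp1, Sfrp2, Sfrp4, Nkd1 and Nkd2 are lower in every CKO library, Dkk2 and Dkk3 lie above every WT library, and Frzb, Wif1 and Axin2 overlap.

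Sfrp1, which encodes a soluble protein with a Frizzled-like cysteine-rich domain that captures Wnt ligands, had the highest level per length of all 10 in controls. Sfrp1 (chromosome 8, 23411502 to 23449632 on GRCm38, in GENCODE M21) had 690, 582 and 732 CPM in WT replicates 1 to 3 and 118, 130 and 99.3 CPM in CKO replicates 1 to 3. All CKO libraries were far below all WT libraries, and the CKO mean was 17.3% of the WT mean. WT averaged 668 ± 77.6 CPM and CKO 116 ± 15.3 CPM (SD, n = 3 each). On the log2 scale Sfrp1 changed by -2.53, with a 95% interval from -2.84 to -2.22 (adjusted p = 5.23e-05, edgeR's quasi-likelihood test).

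Sfrp4, a relative of Sfrp1 whose loss of function is known to thin cortical bone, followed the same direction. Sfrp4 (chromosome 13, 19623104 to 19632994) was at 76.4, 73.8 and 91.5 CPM in WT and 28.0, 22.1 and 27.5 CPM in CKO libraries. CKO libraries kept 32.1% of the WT mean, and the log2 fold change of Sfrp4 was -1.64 (95% interval -1.94 to -1.33, adjusted p = 0.000282). Sfrp2 (chromosome 3, 83766321 to 83774316) was at 30.0, 24.8 and 30.4 CPM in WT and 13.2, 13.5 and 12.8 CPM in CKO libraries. Its CKO libraries were nearly alike, at 46.5% of the WT mean, with a log2 fold change of -1.10 (95% interval -1.38 to -0.83, adjusted p = 0.00121). Of the exonic bases of Sfrp2, 16.1% overlap an antisense gene, Gm26771, and the use of strand in the counting is not given in the sources used here. The exons of Sfrp1 and Sfrp4 overlap no other gene.

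Frzb, the remaining Frizzled-related gene, did not pass the test. Frzb (chromosome 2, 80411970 to 80447625) was at 9.52, 6.84 and 5.63 CPM in WT and 7.92, 8.46 and 8.90 CPM in CKO libraries. WT libraries spanned the CKO range, with replicate 1 above and replicates 2 and 3 below it. The log2 fold change of Frzb was 0.21 with a 95% interval from -0.26 to 0.67 (adjusted p = 0.609), so a fall of the size seen in its 3 relatives lies outside the interval.

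Wif1 encodes a secreted protein that binds Wnt ligands through a domain unlike that of the Frizzled-related proteins. Wif1 (chromosome 10, 121033960 to 121100650) was at 4.89, 4.59 and 4.59 CPM in WT and 5.04, 4.53 and 4.28 CPM in CKO libraries. The genotypes overlapped throughout, and the log2 fold change of -0.021 had a 95% interval from -0.38 to 0.33 (adjusted p = 0.954).

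The Dickkopf genes lay on the other side of zero without passing the threshold. Dkk3, a divergent family member that is not a clear LRP antagonist, is on chromosome 7 (112116017 to 112159057) and was at 218, 210 and 178 CPM in WT and 246, 254 and 244 CPM in CKO libraries. All CKO libraries were above all WT libraries, with a log2 fold change of 0.30 (95% interval 0.068 to 0.53, adjusted p = 0.126). Dkk2 (chromosome 3, 132085292 to 132180304) had 49, 75 and 103 counts in WT and 101, 75 and 115 counts in CKO libraries, or 2.14 to 3.69 CPM and 3.73 to 5.53 CPM. Its ranges nearly touched, and its log2 fold change of 0.68 had an interval from 0.11 to 1.25 (adjusted p = 0.157). Without WT replicate 3 both genes passed the threshold, Dkk2 with a log2 fold change of 0.91 (adjusted p = 0.012) and Dkk3 with 0.22 (adjusted p = 0.0198), in a fit that called 11.1% of all genes higher.

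Nkd1 and Nkd2 encode Naked cuticle proteins, which bind Dishevelled, and Nkd1 is itself a known target of β-catenin. Nkd1 (chromosome 8, 88521354 to 88594884) had 170, 171 and 222 counts in WT and 21, 14 and 26 counts in CKO libraries. These were 6.28 to 7.96 CPM and 0.697 to 1.25 CPM, far apart although the CKO counts are small. The log2 fold change of Nkd1, at -2.90 (95% interval -3.44 to -2.35, adjusted p = 0.000283), was the most negative of the 10. Nkd2 (chromosome 13, 73818534 to 73847631) was at 35.7, 34.1 and 39.3 CPM in WT and 14.7, 14.2 and 12.4 CPM in CKO libraries. CKO libraries held 37.8% of the WT mean of Nkd2, a log2 fold change of -1.40 (95% interval -1.67 to -1.13, adjusted p = 0.00031).

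Axin2, a scaffold of the β-catenin destruction complex and a widely used readout of canonical Wnt signaling, did not follow the Naked genes. Axin2 (chromosome 11, 108920349 to 108950783) had 118, 131 and 117 counts in WT and 96, 97 and 125 counts in CKO libraries, or 4.20 to 5.15 CPM and 4.32 to 6.01 CPM. The genotypes overlapped, and the log2 fold change was 0.099 with a 95% interval from -0.32 to 0.52 (adjusted p = 0.796). Of the exonic bases of Axin2, 3.80% overlap the antisense gene Gm11670. Within each library the log2 ratio of Nkd1 to Axin2 was 0.38 to 0.92 in WT and -2.79 to -2.19 in CKO, without overlap. The difference in means of -3.03 restates the fall of Nkd1 beside an Axin2 that changed little, and is no further test. The ratio of Nkd1 to Nkd2 also differed without overlap, by -1.53 on the log2 scale. Its exact two-sided permutation p was 0.1, the smallest that 3 against 3 libraries can give.

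**Figure D2:**
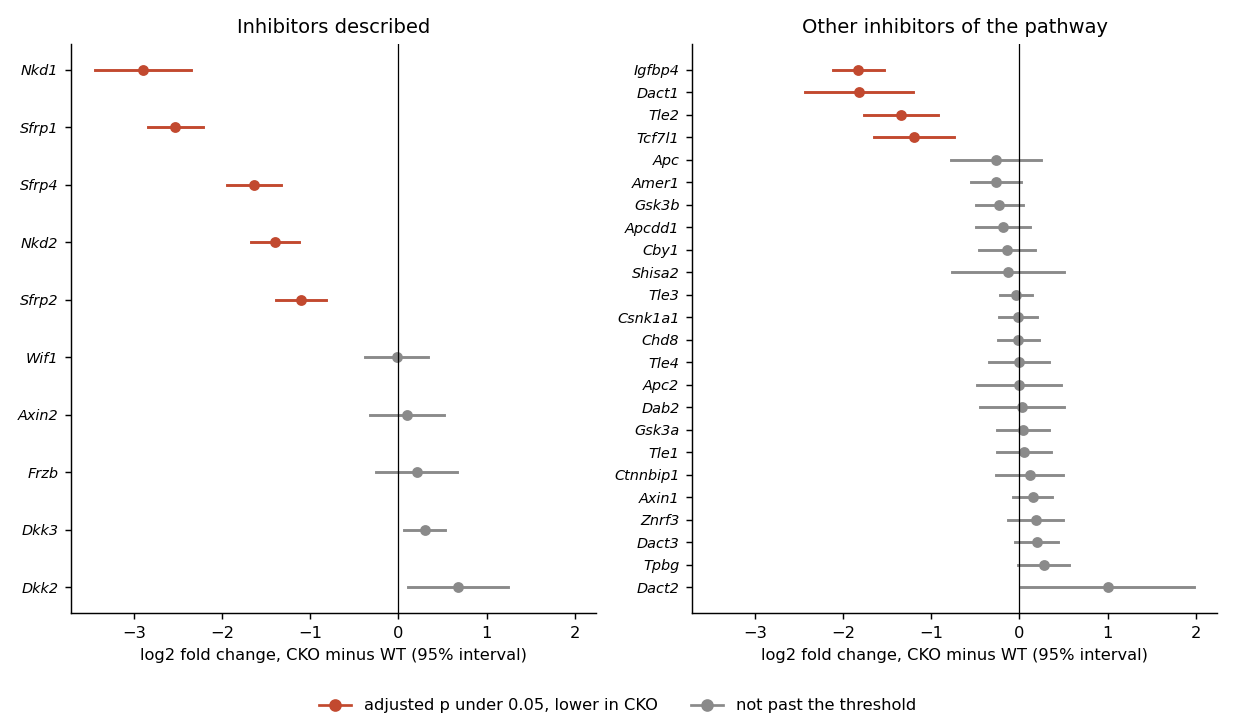
Log2 fold changes (CKO minus WT) on the x axis with 95% intervals for the 10 inhibitors described and for 24 other inhibitors of the pathway on the y axis. Genes past an adjusted p of 0.05 are red. They are 5 members and 4 others, all lower in CKO, and the intervals of Dkk2, Dkk3 and, among the others, Dact2 lie above 0 although their adjusted p-values do not pass.

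Divided by exon length, so that genes can be compared with each other, the levels in WT MSCs ran from Sfrp1 at 153 ± 17.7 CPM per kilobase (SD, n = 3) down to Dkk2 at 0.773 ± 0.211. Dkk3 (60.1 ± 6.39), Sfrp4 (19.3 ± 2.29), Sfrp2 (13.2 ± 1.45) and Nkd2 (7.54 ± 0.550) followed Sfrp1, each with a range apart from its neighbours. Lower down, Frzb and Wif1 overlapped each other, as did Axin2 and Dkk2, and Nkd1, at 1.58 ± 0.188 CPM per kilobase, overlapped the lowest Frzb library. In CKO MSCs the order changed at both ends. Dkk3 led at 73.9 ± 1.47 CPM per kilobase, Sfrp1 came next at 26.5 ± 3.51, and Nkd1 was last at 0.212 ± 0.0609. Sfrp4 and Sfrp2, at 6.20 and 6.13 CPM per kilobase, could not be ranked, nor could Nkd2 and Frzb, or Dkk2 and Axin2.

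The 7 secreted inhibitors together summed to 261, 230 and 261 CPM per kilobase in WT and 119, 122 and 114 in CKO libraries. The CKO mean was 0.473 times that of WT, and most of the drop was in Sfrp1. Without Sfrp1 the other 6 summed to 93.5 to 103 CPM per kilobase in WT and 91.3 to 92.6 in CKO libraries. That sum joins opposite changes. The means of Sfrp4 and Sfrp2 went from 19.3 to 6.20 and from 13.2 to 6.13 CPM per kilobase. Dkk3, its largest part, went from 60.1 to 73.9 without passing the test. Sfrp1 made up 58.0% to 64.2% of the secreted sum in WT and 19.9% to 24.2% in CKO libraries, whereas Dkk3 made up 20.3% to 27.2% and 61.6% to 63.8%. These are shares of 1 sum, so they are not independent of each other. The within-library log2 ratio of Sfrp1 to Dkk3 differed by -2.83 between genotypes. Its lack of overlap follows from CKO libraries lying below all WT libraries for Sfrp1 and above them for Dkk3, and is no further test. The pair of Naked genes summed to 9.12 ± 0.726 CPM per kilobase in WT and 3.06 ± 0.212 in CKO MSCs (SD, n = 3).

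**Figure D3:**
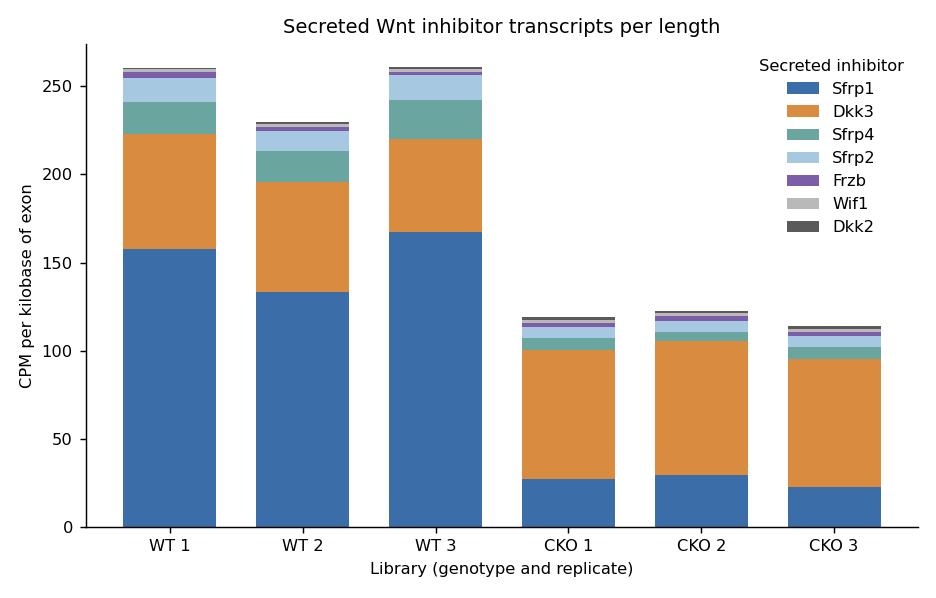
Stacked bars of the 7 secreted inhibitors in each library (x axis), in TMM-scaled CPM per kilobase of exon (y axis, from 0). Sfrp1 (dark blue) is the largest part of each WT bar and Dkk3 (orange) of each CKO bar, where the totals are 114 to 122 against 230 to 261 in WT.

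The WT libraries also differed in the members. In all 5 genes that fell, WT replicate 3 was the highest of the controls, and in 4 of the 5 that did not pass (Frzb, Wif1, Dkk3 and Axin2) WT replicate 3 was the lowest, in Wif1 by less than the last digit printed above. WT replicate 3 was the highest of the controls in 55.3% of all genes called lower, and over all genes tested it was the highest in 42.7% and the lowest in 42.7%. The coefficient of variation in WT was 7.30% to 11.9% in the genes that fell, and the widest in WT were Frzb and Dkk2 at 27.2% and 27.3%. In CKO libraries, Nkd1, the gene with the fewest counts, varied most, by 28.8%. With any 1 library left out, the log2 fold change of Sfrp1 ran from -2.62 to -2.43, that of Nkd1 from -3.12 to -2.71, and the 5 genes stayed past the threshold.

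**Figure D4:**
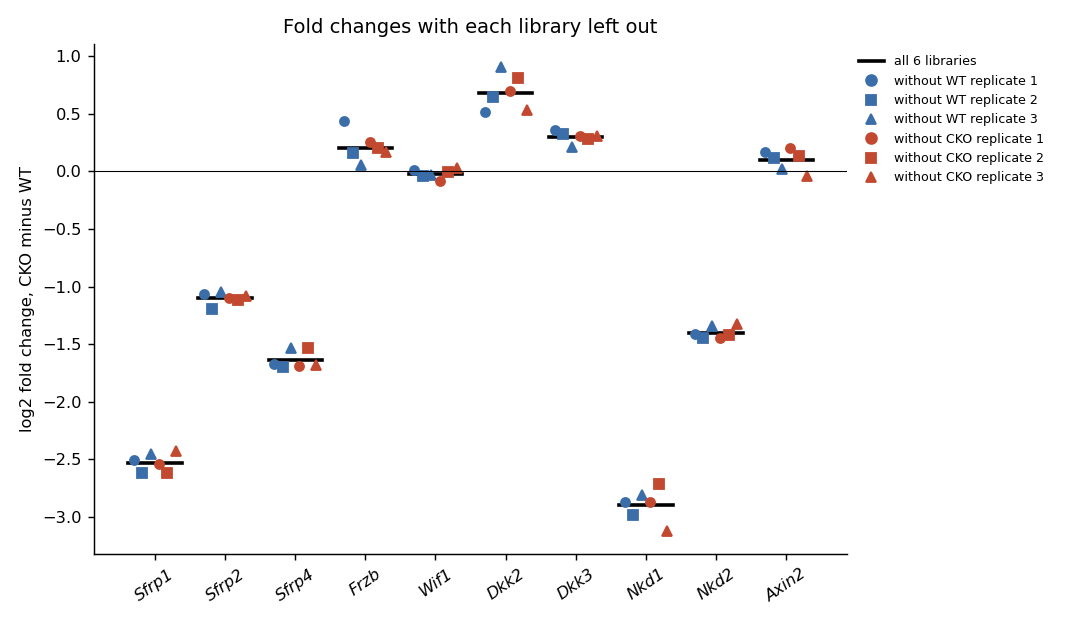
Log2 fold change (y axis, CKO minus WT) of each inhibitor (x axis) in all 6 libraries (black bars) and with each library left out (blue for WT, red for CKO). The 5 genes that fell stay below -1 in each case, while the signs of Wif1 and Axin2, both near 0, change when single libraries are left out.

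Other inhibitors of the pathway were counted in the same fit, in which 4.51% of all genes were called lower. Of 35 on the list, 24 were tested, 4 fell and 0 rose by edgeR, DESeq2 or limma-voom, with 1 (Dact2) higher at an unadjusted p under 0.05 in edgeR. Without CKO replicate 2 or CKO replicate 3, the number called lower was 3. Igfbp4, an IGF-binding protein that can also bind Frizzled and LRP, was the most abundant of the 4 and went from 1385 to 391 CPM on average, or -1.83 ± 0.13 (SE) in log2 terms. Dact1, which acts on Dishevelled, changed by -1.81 ± 0.27 (SE), although 34.9% of its exon length is shared with 4930474H06Rik on the other strand. The co-repressor gene Tle2 and Tcf7l1, which encodes a TCF that mostly represses, had log2 fold changes of -1.34 and -1.19. Core parts of the destruction complex did not pass: Axin1, Apc and Gsk3b had log2 fold changes of 0.15, -0.27 and -0.23. The median log2 fold change of the 24 was -0.015, near the 0.0017 of all genes tested. Sfrp5, Dkk1, Dkkl1, Sostdc1, Shisa3, Notum and Rnf43 were under the filter, with Dkk1 at 0 or 1 count in every library. Dkk4, Krem1, Krem2 and Sost had no entry under those symbols among the gene IDs used.

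Among 19 known Wnt target genes, 14 were tested, 4 fell (Nkd1, Lgr5, Tnfrsf19 and Fst) and 1, the cyclin gene Ccnd1, rose, where 4.51% of all genes tested were called lower and 2.88% higher. The log2 fold changes of Lgr5, Tnfrsf19 and Fst were -1.47, -1.64 and -0.75, and that of Ccnd1 was 0.71. The targets Axin2, Znrf3 and Apcdd1, which are also feedback inhibitors, had adjusted p-values of 0.796, 0.488 and 0.48, and the median over the 14 was 0.14. Without WT replicate 3, 4 targets were higher and 4 lower, in a fit that called 11.1% of all genes higher and 10.4% lower, and without WT replicate 1, WT replicate 2, CKO replicate 1 or CKO replicate 2 the lower targets numbered 3.

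Genes that send or receive the signal were counted in the same fit, with the same 4.51% of all genes lower and 2.88% higher. Of 9 Wnt ligands tested, Wnt4 and Wnt11 fell (log2 fold changes -1.97 and -1.68) and Wnt5a rose (0.45, adjusted p = 0.0415). The call on Wnt5a was absent under total-count scaling and without WT replicate 1, WT replicate 2, CKO replicate 1 or CKO replicate 3. Of 21 receptors and R-spondins tested, 10 fell and 1 rose, with Rspo3 (-2.21), Ror1 (-1.64), Rspo2 (-1.60), Lgr5 (-1.47) and Fzd4 (-1.36) among those that fell and Lgr6 (1.13) the 1 that rose, a call made with all libraries or without WT replicate 3 and in no other fit without 1 library. The receptors and R-spondins called lower numbered 8 without WT replicate 1 or any 1 CKO library, 9 without WT replicate 2 and 13 without WT replicate 3, where 10.4% of all genes were lower. Fzd9 had 12 to 16 counts in WT and 2 or 3 in CKO libraries. Of 10 signal transducers tested, Pygo1 fell (-1.03), while Tcf7l2 and Bcl9, the next by p-value, had log2 fold changes of -0.62 and -0.29 (adjusted p = 0.13 and 0.149). The transducer count of 1 lower was 0 without CKO replicate 1 or CKO replicate 3 and 2 lower with 1 higher without WT replicate 3.

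**Figure D5:**
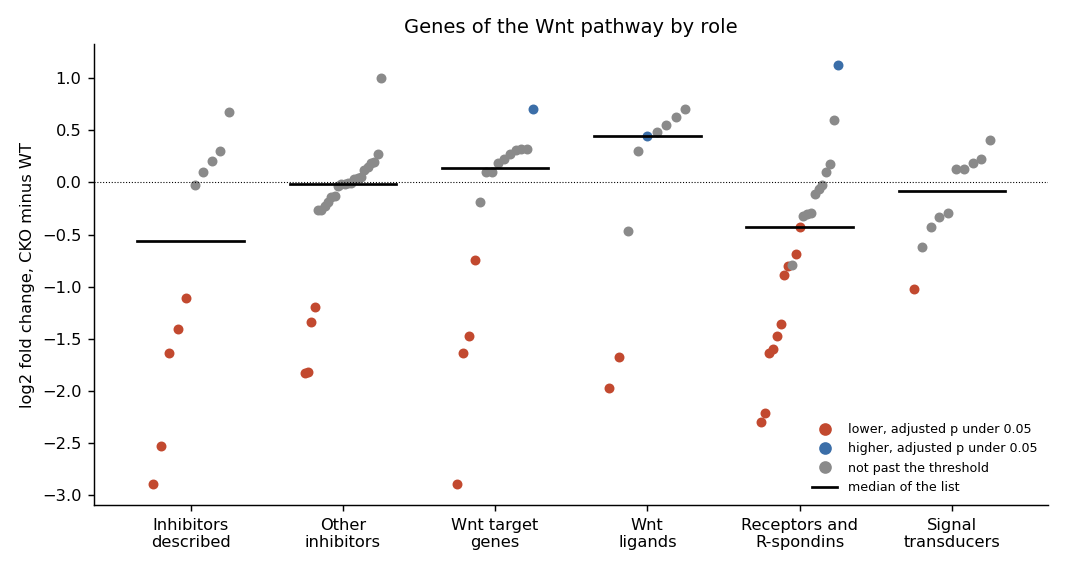
Log2 fold change (y axis, CKO minus WT) of every tested gene on 6 lists of Wnt pathway genes (x axis), with black lines for the list medians. Red genes were lower and blue genes higher at an adjusted p under 0.05. The medians are -0.56 for the inhibitors described, -0.015 for other inhibitors, 0.14 for target genes, 0.45 for ligands, -0.43 for receptors and R-spondins and -0.079 for signal transducers.

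Markers of other cell types were counted beside the inhibitors in the same fit, which called 4.51% of all genes lower and 2.88% higher. Of 8 adipocyte markers, 5 fell and 0 rose by edgeR with its expression filter, with 1 higher at an unadjusted p under 0.05, 1 higher by DESeq2 and by edgeR with no filter, and 0 by limma-voom. Without WT replicate 3, 6 were lower and 2 higher, in a fit that called 10.4% of all genes lower and 11.1% higher. The adiponectin gene Adipoq had 1166 to 1235 counts in WT and 6 to 33 in CKO libraries, and Plin1 and Cfd had 59 to 115 and 33 to 53 counts in WT and 0 in every CKO library. On the mesenchymal and osteoblast list, the marrow stromal genes Cxcl12 and Lepr fell by 2.44 and 2.72 on the log2 scale. The osteoblast genes Sp7, Alpl and Ibsp (log2 fold changes -1.88, -1.11 and -1.25) and the surface marker genes Eng and Pdgfra (-1.11 and -0.42) fell as well. The genes of that list that rose were Thy1 (1.52) and the collagen genes Col1a1 (0.61) and Col1a2 (0.64). Summed over the 8 adipocyte genes, however, the level was 763 to 803 CPM in WT and 662 to 863 CPM in CKO libraries, since Lpl, Cebpa and Fabp4, which macrophages also express, made up most of it. The part of these cells in the levels of Sfrp1, Sfrp2, Sfrp4, Nkd1 and Nkd2 was not tested. Endothelial markers summed to 33.0 to 46.0 CPM in WT and 30.7 to 35.6 CPM in CKO libraries and edgeR called 0 of 8. At an unadjusted p under 0.05, 1 was lower and 1 higher, DESeq2 called 1 lower and limma-voom 0, edgeR called 1 lower under total-count scaling or with no filter, and the fits without WT replicate 2 and without WT replicate 3 called 1 lower, the latter also 1 higher. Of 4 chondrocyte markers tested, Comp fell, and 1 was higher at an unadjusted p under 0.05, by DESeq2, without WT replicate 1 and without WT replicate 3.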

How the data were processed

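The authors purified poly(A) RNA, sequenced it in paired-end reads and mapped it to mm10 with HISAT2. The deposited values are raw counts of reads per gene, not normalized by the authors. How reads were counted, on which annotation and with what strand setting, is not given in the sources used here. Of 20163 rows, 92 repeat an ID with the same counts, and each ID was used once.

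Counts were tested with edgeR 4.0.16 under R 4.3.3 by its quasi-likelihood method (glmQLFit and glmQLFTest), after filterByExpr and TMM scaling and with no covariate, with Benjamini-Hochberg adjustment over all 13733 genes tested. Genes were called at an adjusted p under 0.05. Standard errors are the log2 fold change over the square root of F. CPM are TMM-scaled, and exon lengths, positions and overlaps come from GENCODE M21 on GRCm38 (20059 IDs matched). Sequences come from RefSeq. Chi-square comparisons of libraries within a genotype gave 90.1 and 106 per gene for the pairs with WT replicate 3 and 2.86 to 10.5 for the others, above sampling noise, so none was taken as a repeat deposit of another. This does not show that they came from separate cultures.

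The genes and lists, written by hand, were chosen with earlier results of these data known. Named genes were all 10 inhibitors and, on each other Wnt list, genes past the threshold that changed by at least 1 on the log2 scale and the 3 with the smallest p. Genes named beyond these, and the marker genes given with values, were chosen after their values were seen. Alternatives were DESeq2 1.42.0 (the study's tool), limma-voom (limma 3.58.1), RLE or total-count scaling, other filters, the replicate number as a block, and leaving out each library. The edgeR, DESeq2 and limma-voom fits were also run on simulated counts, and the outcome is not given here.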

Additional observations from a re-analysis of the deposited data

How the results depend on the processing

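All 13 alternatives (7 other settings and 6 fits without 1 library) called the same number of the 10 inhibitors lower, 5, each by at least 1 on the log2 scale. For Sfrp1, Sfrp2, Sfrp4, Nkd1 and Nkd2 alike, each alternative kept the direction and the side of the threshold, with the highest adjusted p at 0.0124 (Sfrp2). The count of inhibitors called higher, 0, ranged from 0 to 2 over the fits without 1 library, and that of other inhibitors called higher, 0, from 0 to 1 (Dab2), both upper ends from the fit without WT replicate 3. Other inhibitors called lower ranged from 3 to 4. With a library left out, log2 fold changes ran from -0.085 to 0.033 for Wif1, -0.042 to 0.21 for Axin2, 0.52 to 0.91 for Dkk2 and 0.22 to 0.36 for Dkk3, the last 2 passing the threshold without WT replicate 3 only. The sign of Wif1 turned without WT replicate 1 (0.011) and without CKO replicate 3 (0.033), and that of Axin2 without CKO replicate 3 (-0.042), none of them near the threshold. Over all genes the counts depended on single libraries, with 324 to 1447 lower and 148 to 1544 higher against 620 and 396. The cause was not tested. Some libraries of the 2 genotypes share a replicate number, and the labels do not say whether these were paired. Their correlations of deviations (0.070, -0.055 and 0.0027) cannot decide it with 3 libraries per genotype. With the number as a replicate block, the fit called 5 inhibitors lower and 0 higher, 4 other inhibitors lower and 0 higher, and 503 genes lower and 267 higher, with 8 receptors and R-spondins lower and 0 higher and 2 ligands lower and 0 higher (Lgr6 and Wnt5a no longer passed). Depth limits Nkd1 in CKO libraries, where it had 14 to 26 counts.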
